A study of Homo sapiens with 10 samples.

Results

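The 8 genes of the E2F family of transcription factors, E2F1 to E2F8, were examined for retinoblastoma protein (Rb) bound at their own promoters. A peak belonged to a gene when it overlapped by at least 1 bp the stretch from 2000 bp upstream to 500 bp downstream of any of its GENCODE release 44 transcript starts, and the 8 genes stood among 19970 protein-coding genes treated in the same way. Rb was mapped by CUT&RUN, in which an antibody on native chromatin directs a nuclease to cut out the DNA around the bound protein. The cells were Kuramochi and OVCAR-3 (labelled OVCAR3), both derived from high-grade serous carcinoma of the ovary and long kept as cell lines, with the genotype labelled wild type. Each line received DMSO, the solvent, or INX-315, a CDK2 inhibitor, at 300 nM, for 2 days. There were 2 Rb libraries per line and treatment, from separate cultures of 1 experiment by the study's methods, and for each line 1 further library with the control antibody IgG2a, also after DMSO, so that 8 Rb and 2 control libraries were available. RNA was not measured in these files, so the values below describe Rb on promoters and not the expression of the E2F genes.

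E2F proteins bind DNA at the promoters of genes for DNA replication and cell division, most of them as partners of a DP protein. E2F1, E2F2 and E2F3 are known as activators that Rb binds and holds inactive until cyclin-dependent kinases phosphorylate it. E2F4 and E2F5 work mainly as repressors with the Rb relatives p107 and p130, E2F6 represses without any pocket protein as part of polycomb-type complexes, and the atypical E2F7 and E2F8 repress without DP partners. Several E2F genes are themselves E2F targets, so that the family is a textbook case of a circuit that acts on its own promoters.

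The sequences just before the first start of the genes with a peak in every Rb library are shown because 3 of them hold a string that E2F proteins are known to recognise, and because the positions of the summits described below are given from the same start. Each line gives the 300 bases upstream of the first GENCODE start on GRCh38, 5′ to 3′ on the strand of the gene, with E2F strings and CCAAT boxes of either strand in capitals. The stretches were chr20:33686386-33686685 (minus strand) for E2F1, chr1:23531234-23531533 (minus strand) for E2F2, chr6:20401579-20401878 (plus strand) for E2F3 and chr12:77065570-77065869 (minus strand) for E2F7, and none of them held an exon of any annotated gene. The fifth such gene, E2F8, is named only.
E2F1: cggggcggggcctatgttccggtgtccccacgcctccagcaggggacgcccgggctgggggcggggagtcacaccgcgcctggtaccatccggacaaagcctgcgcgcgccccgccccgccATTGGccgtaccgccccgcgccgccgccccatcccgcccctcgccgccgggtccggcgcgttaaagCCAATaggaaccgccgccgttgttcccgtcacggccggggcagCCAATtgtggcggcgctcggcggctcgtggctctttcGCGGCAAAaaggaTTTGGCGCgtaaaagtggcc
E2F2: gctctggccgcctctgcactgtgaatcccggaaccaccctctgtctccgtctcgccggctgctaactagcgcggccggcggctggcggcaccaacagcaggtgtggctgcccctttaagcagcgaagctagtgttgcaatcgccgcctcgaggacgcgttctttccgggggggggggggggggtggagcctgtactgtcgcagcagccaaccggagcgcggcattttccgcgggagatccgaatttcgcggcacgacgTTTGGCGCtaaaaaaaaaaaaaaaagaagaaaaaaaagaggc
E2F3: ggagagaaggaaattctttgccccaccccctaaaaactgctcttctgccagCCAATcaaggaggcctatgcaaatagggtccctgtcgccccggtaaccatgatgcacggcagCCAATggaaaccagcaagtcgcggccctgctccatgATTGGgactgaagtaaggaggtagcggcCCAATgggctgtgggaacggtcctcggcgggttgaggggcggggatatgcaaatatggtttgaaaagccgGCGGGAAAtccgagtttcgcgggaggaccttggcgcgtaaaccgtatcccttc
E2F7: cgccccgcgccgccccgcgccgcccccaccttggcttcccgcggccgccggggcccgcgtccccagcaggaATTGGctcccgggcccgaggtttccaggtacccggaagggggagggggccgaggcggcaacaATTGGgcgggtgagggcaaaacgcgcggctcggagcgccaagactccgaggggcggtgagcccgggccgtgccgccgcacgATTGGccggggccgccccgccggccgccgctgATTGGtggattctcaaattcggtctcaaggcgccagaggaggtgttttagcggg

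E2F1 had 2 E2F strings in this stretch, beginning 33 and 20 bases upstream of the start, the first on the opposite strand (TTTGCCGC) and the second on the strand of the gene (TTTGGCGC). E2F2 had 1, TTTGGCGC, beginning 42 bases upstream, which the E2F2 peak of replicate 2 of OVCAR-3 DMSO, starting at −15 bp, did not cover. E2F3 had 1, TTTCCCGC on the opposite strand, beginning 53 bases upstream, with a CHR string (TTTGAA) beginning 65 bases upstream. E2F7 had none of these strings and 4 CCAAT boxes, as E2F3 also had. The strings searched for were TTTCCCGC, TTTCGCGC, TTTGCCGC and TTTGGCGC for E2F and, as a comparison, the same letters written backwards (CGCCCTTT, CGCGCTTT, CGCCGTTT and CGCGGTTT), each on both strands. A match describes the letters and does not show that a factor was bound.

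Read depth was recovered from the peak lists as the genome-wide mean number of fragments per base, which ran from 0.216 to 0.501 over the Rb libraries, and the libraries held 5221 to 17281 peaks. Summit height is given throughout as the fragments at the summit of a gene's highest promoter peak divided by that mean. Summits at the E2F genes rested on 7 to 113 fragments. Intervals in brackets are exact 95% Poisson intervals of these counts and cover counting error only, which also leaves out that duplicate fragments were kept. The IgG2a libraries held 257 and 195 peaks, of which 0 lay at an E2F promoter. Heights of all genes shifted together: over 3762 genes with a promoter peak in all 8 Rb libraries, the median INX-315 minus DMSO difference was 1.64 on the log2 scale, 1.78 in OVCAR-3 and 1.51 in Kuramochi. No spike-in scale was used here, so a change common to all promoters cannot be told apart from a change in the enrichment of the libraries.

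Under DMSO, Rb peaks in both replicates marked 6 of the 8 E2F promoters in OVCAR-3 and 5 of 8 in Kuramochi. With INX-315 the number was 7 of 8 in each line. All protein-coding genes were marked at 26.8% in OVCAR-3 and 24.8% in Kuramochi under DMSO, and at 55.5% and 53.2% with INX-315. E2F1, E2F2, E2F3, E2F7 and E2F8 carried a peak in all 8 Rb libraries, as 18.8% of genes did. E2F5 was the only E2F gene gained, meaning a peak in both INX-315 and neither DMSO library, and it was gained in both lines; the share of all genes gained was 16.2% (OVCAR-3) and 14% (Kuramochi). No E2F gene was lost, and losses were rare among all genes, at 0.00501% of genes in OVCAR-3 and 0.015% in Kuramochi (1 and 3 genes). With lists cut to the same length within a line, OVCAR-3 had 5795 genes marked with INX-315 beside 4958 under DMSO, and Kuramochi 4994 beside 4351. Here 6 E2F genes were marked with INX-315 in each line, 466 and 405 genes were gained and 215 and 193 lost. After this cut the number of marked promoters was still larger with INX-315, but by less. Cutting the longer lists removes promoters by construction, so what made the number larger was not tested. These are counts of peaks called library by library, with no test. A missing peak does not show that Rb was absent.

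**Figure D1:**
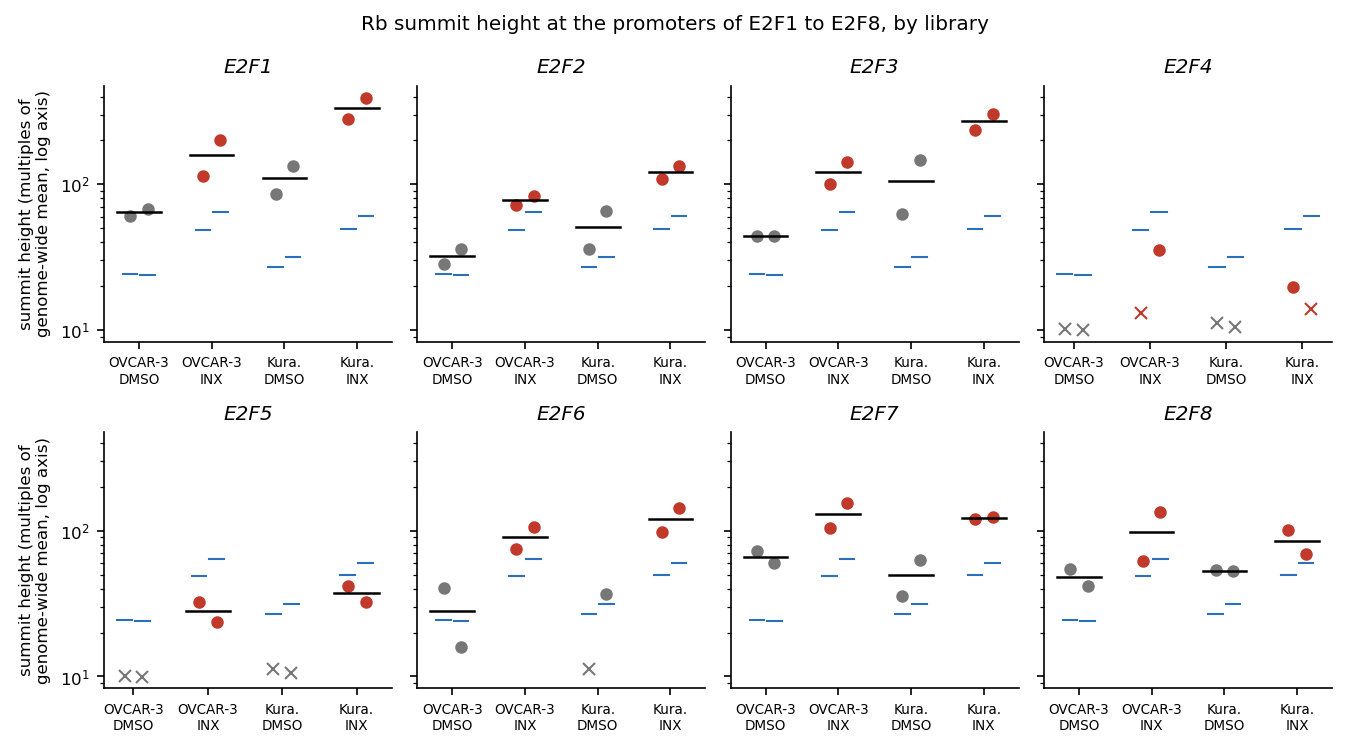
Summit height of Rb promoter peaks (multiples of the genome-wide mean, log axis) for each of the 8 genes; points are libraries (grey DMSO, red INX-315), black lines the mean of 2 replicates, blue ticks the median promoter height of that library, and crosses libraries with no peak, drawn at the library's lowest promoter height. E2F1 and E2F3 reach 394 and 306 in Kuramochi with INX-315, whereas E2F4 has points in only 2 libraries and E2F5 only with INX-315.

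Of the 5 E2F genes with a peak in every library, the activator gene E2F1 had the highest mean summit height. Only E2F7 in replicate 1 of OVCAR-3 DMSO (72.8) and E2F3 in replicate 2 of Kuramochi DMSO (147) stood above it within a library. In OVCAR-3 its summit height was 60.6 and 67.8 in the DMSO replicates and 114 and 202 in the INX-315 replicates. The Kuramochi libraries measured 85.4 and 134 without and 279 and 394 with the inhibitor. The treatments did not overlap in either line, as for 99.5% of genes tested in OVCAR-3 and 97.8% in Kuramochi. The lowest INX-315 library of Kuramochi, 279 (230.0 to 336), lay above its highest DMSO library, 134, whose interval reached 177. Mean E2F1 height rose 2.46-fold (OVCAR-3) and 3.06-fold (Kuramochi). From the log2 differences its rise was 2.37-fold and 3.10-fold, where the median gene rose 3.43-fold and 2.86-fold. These values for all genes also stand beside E2F2, E2F3, E2F7 and E2F8 below. Within each library, the E2F1 summit stood above 87.6% to 98.99% of the genes with a promoter peak.

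E2F3, which encodes a longer and a shorter isoform from separate starts, showed the largest spread between the DMSO replicates of Kuramochi. Its height in OVCAR-3 was 44.5 and 43.9 under DMSO and 101 and 143 with INX-315. The Kuramochi libraries gave 62.9 and 147 for DMSO, then 235 and 306 for INX-315. The treatments again did not overlap, with ratios of 2.76 and 2.57, although the DMSO replicates of Kuramochi differed from each other by nearly as much as the treatments did. E2F2, the third activator, was lower. Its height was 28.3 and 35.9 under DMSO and 71.8 and 83.2 with INX-315 in OVCAR-3, and 35.9 and 65.8 against 109 and 134 in Kuramochi. The ratios were 2.41 and 2.39, without overlap in either line.

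The repressor genes E2F4 and E2F5 had peaks in the fewest libraries. E2F4, the most widely used partner of p107 and p130, had no DMSO peak. One INX-315 library of each line listed one, at 35.7 (20.0 to 58.8) in replicate 2 of OVCAR-3 and at 19.8 (8.53 to 38.9) in replicate 1 of Kuramochi. A peak there also fell in the promoter of the neighbouring gene EXOC3L1, so its assignment to E2F4 is uncertain. E2F5 had no DMSO peak either, and its height with INX-315 was 32.6 and 23.8 in OVCAR-3 and 42.0 and 32.4 in Kuramochi. These were low values: the E2F5 summit stood above 13.5% to 44.7% of the genes with a promoter peak in the same libraries. They rested on 10, 10, 17 and 7 fragments. The background that the peak caller set at the E2F5 peaks was 4.48 to 5.17 times the genome-wide mean in OVCAR-3 and 1.91 to 2.49 times in Kuramochi, and its part in the missing DMSO peaks was not tested. With only peaks of a q-value of at most 0.001, E2F5 was no longer counted as gained in OVCAR-3, and with lists cut to the same length within a line it was gained in neither.

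E2F6, the polycomb-associated repressor, had a peak in 7 libraries and none in replicate 1 of Kuramochi DMSO. Its height in OVCAR-3 was 40.4 and 15.95 under DMSO and 75.0 and 107 with INX-315, a ratio of 3.23 with no overlap. Among genes with a peak in all 8 Rb libraries, which leave out E2F6, 99.5% had no overlap in OVCAR-3. In Kuramochi the E2F6 height was 36.9 in the DMSO library with a peak and 98.8 and 144 with INX-315. Because 1 library lacked a peak, E2F6 was left out of the test over both lines. In a fit of the 4 OVCAR-3 libraries alone, chosen after seeing the data, E2F6 was 1.82 ± 0.41 (SE) higher on the log2 scale with INX-315 (limma, Benjamini-Hochberg adjusted p = 1.9e-05), against a median of 1.78 over the 5333 genes tested there, of which 98% were called higher.

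The atypical repressor genes had mean heights over the 8 Rb libraries between those of E2F2 and E2F1. In Kuramochi with INX-315, however, the mean of E2F8 (85.4) lay below that of E2F2 (121). E2F7 measured 72.8 and 59.8 under DMSO and 104 and 155 with INX-315 in OVCAR-3, and 35.9 and 63.2 against 121 and 125 in Kuramochi. Its ratios were 1.95 and 2.48 without overlap. E2F8 measured 54.6 and 41.9 under DMSO and 62.0 and 136 with INX-315 in OVCAR-3. In Kuramochi E2F8 measured 53.9 and 52.7 under DMSO and 101 and 69.5 with INX-315. The ratios of 2.05 and 1.60 did not involve overlapping libraries, but in each line 1 INX-315 library of E2F8 lay close to DMSO: 62.0 (37.3 to 96.8) beside 54.6 (35.96 to 79.4) in OVCAR-3, and 69.5 (38.9 to 115) beside 53.9 (34.5 to 80.2) in Kuramochi.

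All 5 E2F genes with a peak in every library were higher in both INX-315 than in both DMSO libraries of each line. The same held for 99.5% of genes in OVCAR-3, 97.8% in Kuramochi and 97.3% in both. With limma on log2 summit height over the 3762 genes, averaged over the lines, all 5 were called higher, as were 99.7% of genes tested. The difference was 1.44 ± 0.29 (SE) for E2F1 (adjusted p = 9.8e-07), 1.46 ± 0.29 for E2F3 (adjusted p = 6.8e-07) and 1.30 ± 0.29 for E2F2 (adjusted p = 9.5e-06). It was 1.16 ± 0.29 for E2F7 (adjusted p = 7.3e-05) and 0.80 ± 0.29 for E2F8 (adjusted p = 0.0060). In a fit of the 13734 genes with a peak in at least 1 library, where each gene kept part of its own spread, the differences of these 5 genes were the same and their adjusted p rose to 0.00029 for E2F1, 0.00038 for E2F3, 0.00049 for E2F2, 0.0012 for E2F7 and 0.020 for E2F8. The median of the 5 was 1.30, beside 1.64 over all genes tested. The exact two-sided permutation of treatment labels within lines gave p = 0.0556 for each of the 5 genes, which is the smallest value that 36 arrangements allow.

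**Figure D2:**
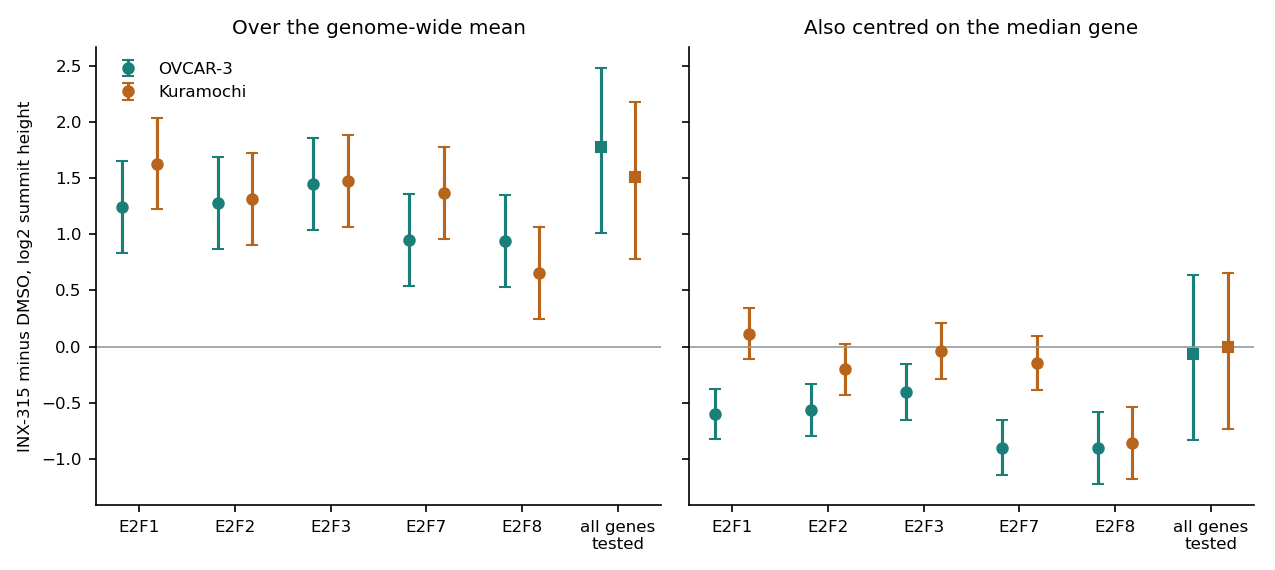
INX-315 minus DMSO difference in log2 summit height in each line for the 5 E2F genes with a peak in all 8 Rb libraries (points, with limma standard errors) and for all 3762 genes tested (squares, median with the 5th to 95th percentile), before (left) and after (right) centring each library on its median gene. All E2F points lie above 0 on the left, and on the right all but E2F1 in Kuramochi lie below it.

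By line, INX-315 called 5 of the 5 E2F genes higher in OVCAR-3, where 98.2% of genes were called higher, and 4 of 5 in Kuramochi, where the share was 94.2%. E2F8 was the gene not called in Kuramochi, at 0.65 ± 0.41 (SE, adjusted p = 0.11). The calls of E2F7 and E2F8 in OVCAR-3 were the weakest, at 0.95 ± 0.41 (adjusted p = 0.022) and 0.94 ± 0.41 (adjusted p = 0.023). Both were lost without replicate 2 of OVCAR-3 INX-315 (adjusted p = 0.18 and 0.44), where E2F1 was lost too (adjusted p = 0.092), and without replicate 2 of OVCAR-3 DMSO (adjusted p = 0.13 and 0.16). Averaged over the lines, the E2F8 call was lost without replicate 2 of OVCAR-3 INX-315 (0.51, adjusted p = 0.099) and without replicate 1 of Kuramochi INX-315 (0.66, adjusted p = 0.060). In Kuramochi, E2F2, E2F3 and E2F7 were lost without replicate 1 of DMSO (0.88, 0.86 and 0.96, adjusted p = 0.073, 0.077 and 0.051).

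Averaged over the lines, the 5 tested E2F genes had smaller differences than the median gene, but only E2F8 passed the test after centring, and E2F4, E2F5 and E2F6 could not be ranked. E2F8 had a smaller difference than all but 1.46% of the genes tested, E2F7 than all but 10.3%, and E2F2 than all but 18.1%, while E2F1 and E2F3 stood at 28.9% and 30.8% of the distribution. After centring each library on its median gene, the difference of E2F8 was −0.88, the one member called lower (limma, adjusted p = 0.021). E2F7 came to −0.52 (adjusted p = 0.053), E2F2 to −0.39 (adjusted p = 0.13), E2F1 to −0.24 (adjusted p = 0.32) and E2F3 to −0.22 (adjusted p = 0.42). On this scale 8.72% of genes were called lower and 4.6% higher. In OVCAR-3 the centred difference of E2F7 was −0.90 (adjusted p = 0.0499), and in Kuramochi that of E2F1 was 0.11 (adjusted p = 0.80). The direction of each of the 5 genes thus turned with the scale, apart from E2F1 in Kuramochi.

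The effect of INX-315 was not found to differ between the lines for any E2F gene. The Kuramochi minus OVCAR-3 difference of the effects ran from −0.28 for E2F8 to 0.42 for E2F7, each ± 0.58 (SE), with an adjusted p of 0.998 for all 5. None of the 3762 genes was called (0%), with 125 at an unadjusted p under 0.05. At this spread, differences between the lines of the sizes seen were not detectable.

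Without inhibitor, the lines differed most at E2F3, the activator gene with 2 promoters. Its DMSO heights of 62.9 and 147 in Kuramochi lay above 44.5 and 43.9 in OVCAR-3, a difference of 1.12 ± 0.41 (SE) on the log2 scale that missed the threshold (adjusted p = 0.060). Of the other members, E2F1 differed by 0.74, E2F2 by 0.61, E2F8 by 0.16 and E2F7 by −0.47, and none passed the test, where 7.63% of genes were higher in Kuramochi and 1.73% lower. The E2F1 libraries measured 85.4 and 134 in Kuramochi and 60.6 and 67.8 in OVCAR-3. For E2F2 the lowest library in Kuramochi (35.95) and the highest in OVCAR-3 (35.89) were nearly equal. The E2F8 libraries of the lines overlapped. E2F7 was the one member with a lower mean in Kuramochi, where 35.9 and 63.2 overlapped with 72.8 and 59.8 in OVCAR-3. After centring, E2F3 was called higher in Kuramochi (0.81, adjusted p = 0.027) and E2F7 lower (−0.79, adjusted p = 0.026), beside 11.8% of genes called higher and 15.1% lower.

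The background set by the peak caller also differed between the lines, though not always in the direction of the heights. At E2F7 it was 3.36 to 5.32 times the genome-wide mean in OVCAR-3 and at the genome-wide mean in Kuramochi, and at E2F1 it was 2.70 to 4.14 times in OVCAR-3 and 1.98 to 2.03 times in Kuramochi. At E2F3 the order was the reverse, with 1.18 to 1.19 times in OVCAR-3 and 2.62 to 3.28 times in Kuramochi. E2F2 had the same order as E2F3, with 1.00 to 1.06 times in OVCAR-3 and 2.31 to 2.37 times in Kuramochi. With heights taken over this local background, limma called 388 of 3762 genes higher in Kuramochi under DMSO and 87 lower. The line difference was then 1.76 for E2F7 (adjusted p = 0.0086), 1.39 for E2F1 (adjusted p = 0.043) and −0.18 for E2F3 (adjusted p = 0.85). The caller took this background from the IgG2a library of each line for all its Rb libraries, so these p-values do not measure its spread. On this scale E2F2 turned negative too. The sign of E2F2, E2F3 and E2F7 between the lines therefore depended on the reference. What raised the local background at these genes was not tested.

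The peaks of the family sat at the starts of the genes. The E2F1 peaks fell within chr20:33685116-33687107 on GRCh38, and their summits lay at −87 to −8 bp from the single annotated start, a range of 79 bp beside a median range of 297 bp over all genes tested. The E2F strings of E2F1 printed above lay 28 and 41 bp downstream of its mean summit. E2F7 summits, within chr12:77064748-77066311, lay at −293 to −33 bp from the first start. E2F2 summits, within chr1:23530038-23531677, lay at −62 to 212 bp from the first start, and the mean position fell in a 5′ untranslated exon. E2F6 summits, within chr2:11465275-11466445, lay 124 to 404 bp downstream of the first of 10 distinct starts, and their mean position was exonic in 10 of 12 transcripts. E2F8 summits, within chr11:19240534-19241814, lay 117 to 567 bp downstream of the first start, and the mean position was intronic in the 3 transcripts that span it.

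**Figure D3:**
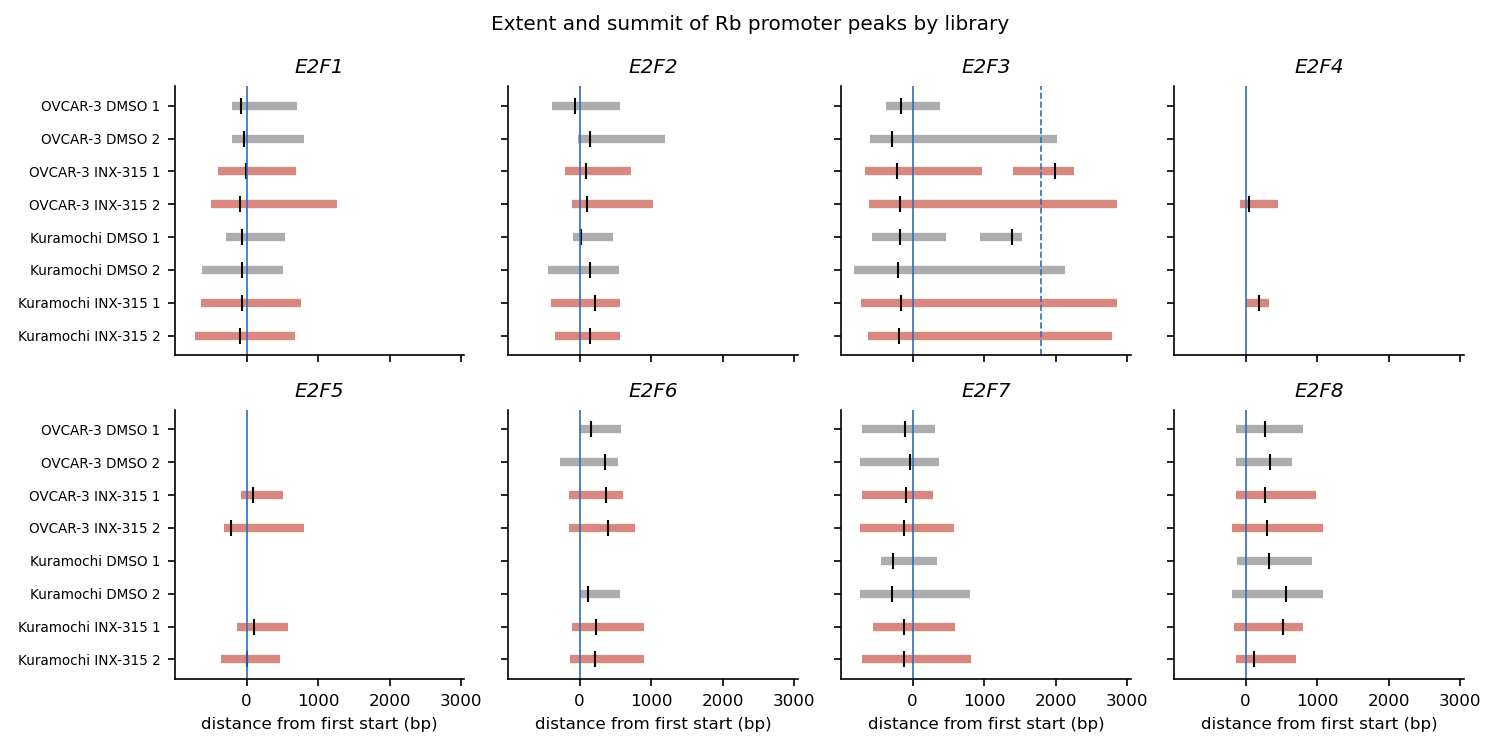
Extent (bars) and summit (black ticks) of every Rb promoter peak of the 8 genes in each library, in bp from the gene's first transcript start (blue line; dashed line, second start of E2F3); grey bars are DMSO and red bars INX-315. The E2F1 ticks line up within 79 bp, and the E2F3 bars reach past the second start in 6 libraries.

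E2F3 had the widest peaks, with a span of chr6:20401064-20404743 and a width of up to 3580 bp, whereas the widest peaks of the other members measured 530 to 1763 bp. Its second start, which gives the shorter isoform, lies 1800 bp downstream of the first. The highest summit lay at −286 to −162 bp from the first start in every Rb library. The 4 CCAAT boxes there began at −249 to −123 bp, so the summit at −286 bp, in replicate 2 of OVCAR-3 DMSO, lay upstream of them. A single peak covered both starts in 5 libraries. In replicate 1 of OVCAR-3 INX-315 a separate peak of height 35.9 covered the second start, with its summit 187 bp downstream of it, and the peak at the first start measured 101. In replicate 1 of Kuramochi DMSO the second peak, of height 22.5, ended before the second start. Replicate 1 of OVCAR-3 DMSO had only the peak at the first start, 751 bp wide. In both lines the widest peak was an INX-315 peak, at 3474 and 3580 bp, but DMSO replicate 2 of each line also held a wide one, at 2615 and 2952 bp.

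In the 200 bp around the mean summit, an E2F string was found at E2F1 and at none of the other 5 members searched (E2F2, E2F3, E2F4, E2F6 and E2F7). The share was 6.94% of the same windows over all 3762 genes tested, and 4.04% held one of the backward strings. In 400 bp the string was found at E2F1, E2F2 and E2F3, beside 15.4% of all windows, and the window of RefSeq promoters, 250 bp before to 50 bp after the start, held it at the same 3 genes, beside 11.6% of 3107 genes matched by symbol. None of the 6 held a backward string in any window. CCAAT stood within 200 bp at E2F1, E2F3 and E2F7, beside 25.2% of all windows, and GGGCGG at E2F1, E2F4, E2F6 and E2F7, beside 62.0%. The window of E2F3 was poor in CG dinucleotides, with 8, and 57% GC, while the other 5 held 20 to 30 CG dinucleotides at 71% to 74.5% GC. The medians over all genes were 19 CG dinucleotides and 68% GC.

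Genes that work with the E2F family were counted in the same libraries. Of 6 partner and pocket protein genes, TFDP1, TFDP2, RB1 and RBL1 had a peak in all 8 Rb libraries, RBL2, which encodes p130, was gained in both lines like E2F5, and TFDP3 was bound in no group. Among all protein-coding genes 18.8% had a peak in all 8, and 16.2% (OVCAR-3) and 14% (Kuramochi) were gained. The 4 tested genes were all called higher with INX-315, from 1.06 for RBL1 to 2.42 for TFDP2 on the log2 scale, with a median of 1.67, where 99.7% of all genes were called higher. After centring, TFDP2 was called higher (0.74) and RBL1 lower (−0.62), so the direction of RBL1 turned with the scale. Of 9 genes for partners of the E2F6 complex, 3 were bound in OVCAR-3 and 4 in Kuramochi under DMSO and 8 in each with INX-315, MGA being the exception. The bound share of all protein-coding genes was 26.8% in OVCAR-3 and 24.8% in Kuramochi under DMSO, and 55.5% and 53.2% with INX-315. All 20 E2F target genes of replication and the cell cycle were bound in every group. Of these, 19 were called higher with INX-315, as were 99.7% of all genes tested, with a median of 1.26, from 0.53 for CDT1, the replication licensing factor, which was not called, to 2.45 for CCNA2, which encodes cyclin A2. After centring each library on its median gene, 1 of the 20 was called higher (CCNA2) and 7 lower (CDC6, CDT1, MCM2, MCM4, MCM5, MCM6 and MCM7), with a median of −0.42, beside 4.6% of all genes called higher and 8.72% lower.

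The mean height over the 8 Rb libraries was 136 for E2F1, the highest of the 5 E2F genes tested, and 61.7 for E2F2, the lowest, with a median of 83.7. The median was 107 over the target genes, from 41.3 for CDK1 to 316 for CCNE2 (cyclin E2). It was 60.8 over the tested partner and pocket protein genes, from 40.7 for TFDP1 to 220.2 for RBL1 (p107), and 61.1 over all genes tested. The 2 tested E2F6 partners were CBX3 at 78.2 and PCGF6 at 40.7. These are geometric means of heights on the scale of the genome-wide mean.

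**Figure D4:**
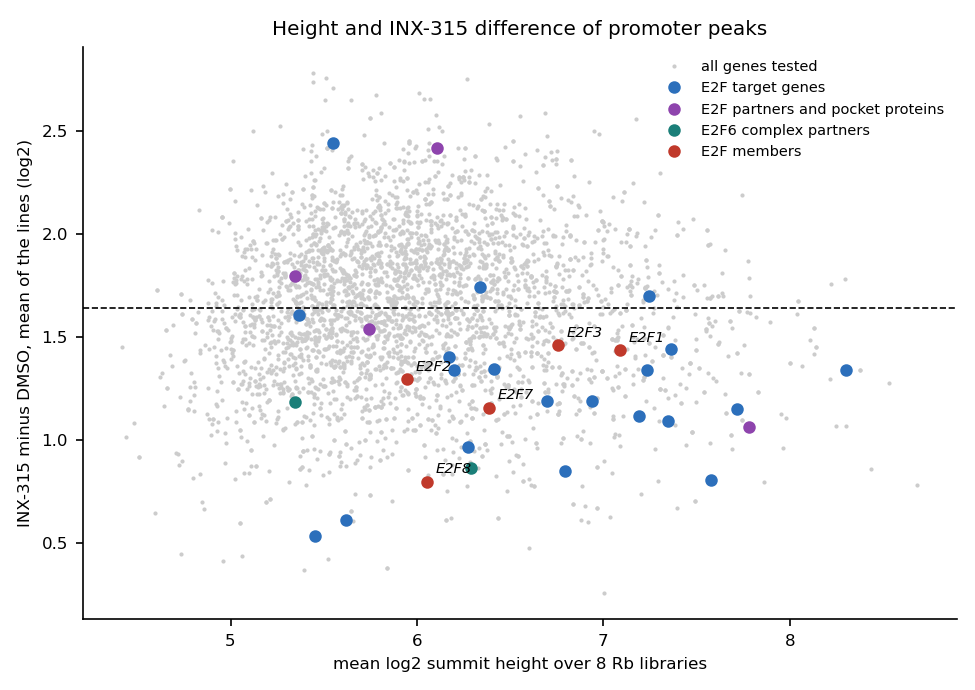
INX-315 minus DMSO difference averaged over the lines against mean log2 summit height over the 8 Rb libraries, for all 3762 genes tested (grey), E2F genes (red, named), target genes (blue), partner and pocket protein genes (purple) and E2F6 partners (green); the dashed line is the median difference of 1.64. All 5 E2F genes lie below the dashed line, and E2F1 lies furthest to the right of them.

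The genes whose log2 heights over the 8 Rb libraries were closest to those of E2F1, among 3761 others, were SLC37A4, ZNF48 and NPAT, with a root mean square difference of 0.12, 0.19 and 0.20. For E2F2 they were TOP2A, ZC3H4 and NAA16, at 0.14, 0.17 and 0.18. This measure compares profiles that share the same libraries and the same general rise with INX-315.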

How the data were processed

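Rb CUT&RUN libraries were grouped by line and treatment from the sample labels. Per the labels and the methods, the authors aligned reads to hg38 with Bowtie2 2.3.4.1 and called peaks in each library with MACS2 2.2.7.1 against the IgG2a library of the line, at a q-value threshold of 0.05 and with duplicates kept. The deposited lists give for each peak a score, a fold enrichment (the ratio of fragments at the summit to local background, each plus 1), −log10 p-values and −log10 q-values, and the summit. The lists were called separately, so a gene can be missed in a library for lack of signal. No peak ran past the end of any of the 23 main chromosomes of the GRCh38 sequence used.

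Fragments at each summit were recovered as the whole number whose fold enrichment and Poisson p-value match the listed pair within a relative tolerance of 3e-05. All peaks (100%) were recovered, up to 1.20% of a library with more than 1 fit, and numbers offset by 0.5 of a fragment fitted at most 1.85%. The lowest frequent background is the genome-wide mean. Log2 summit heights were fitted with limma 3.58.1 in R 4.3.3 (group means of all 8 Rb libraries, moderated two-sided tests, Benjamini-Hochberg over all genes tested, threshold 0.05). The fit estimated 1 spread common to all genes, so every gene has the same standard error within a contrast, and p-values rest on a normal reference and not on the 4 residual degrees of freedom of each gene. Whole libraries shifted: leaving out 1 library moved the median Kuramochi difference between 1.22 and 1.80. A shift common to all genes is not counted by these p-values, which are therefore smaller than 2 replicates per group would warrant. Height recovery and fit were tested on simulated data. The simulated fit had independent noise for each gene and no shift of whole libraries, so it does not test the p-values under such shifts. The study's count-based test was not used here because peak lists hold no reads. Sequences were read from GRCh38 and RefSeq promoters, of which 6 members matched by symbol; E2F5 and E2F8 were left out of sequence steps.

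The 8 members are all named; of each related list the highest and lowest are named, and the 3 genes with the smallest root mean square difference for the highest and lowest member. Any gene named beyond that rule (the bound, gained or missing members of a list, and the ends of a list's differences) was chosen after its values were seen. The members, lists and tests were chosen with earlier results of these data known. Alternatives covered promoter window, overlap, q-value, list length, scaling, missing peaks, each library left out and the replicate block.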

Additional observations from a re-analysis of the deposited data

How the results depend on the processing

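Scale mattered most. With each library centred on its median gene, genes called higher and lower with INX-315 numbered 173 and 328 averaged over the lines, 36 and 111 in OVCAR-3 and 0 and 2 in Kuramochi; 0 E2F genes were called higher in any of these, and 1 was called lower in each of the first 2 (E2F8, then E2F7). The centred values of E2F1, E2F2, E2F3, E2F7 and E2F8 were −0.24, −0.39, −0.22, −0.52 and −0.88 averaged over the lines and −0.60, −0.57, −0.40, −0.90 and −0.91 in OVCAR-3. In Kuramochi those of E2F2, E2F3, E2F7 and E2F8 were −0.20, −0.041, −0.15 and −0.86. Between the lines under DMSO, centring called 443 genes higher and 567 lower in Kuramochi, with 1 E2F gene each way, and turned E2F8 to −0.16; it moved the E2F8 difference of effects to 0.044.

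With the fold enrichment as listed, 3 E2F genes were called higher with INX-315 in OVCAR-3, beside 3326 of 3762 genes. The E2F8 call over both lines was lost (0.46, limma adjusted p = 0.15), where 3598 genes were called higher. Between the lines under DMSO, 21 genes were higher and 2 lower, and E2F2 and E2F7 turned to −0.055 and 0.53. The E2F7 difference of effects turned to −0.0046. Over the local background, 2 E2F genes were higher in Kuramochi under DMSO, beside 388 of 3762 genes called higher and 87 lower. E2F2, E2F3 and E2F7 stood at −0.57, −0.18 and 1.76 there. Over the same background E2F8 lost its INX-315 call in OVCAR-3 (0.94, limma adjusted p = 0.061), where 3495 genes were called higher. That background came from the IgG2a library of each line, so the calls between the lines do not cover its spread. With lists of equal length 39 genes were lower between the lines, and 0 E2F genes were gained in either line; in OVCAR-3 and Kuramochi 5795 and 4994 genes were marked with INX-315, 466 and 405 gained and 215 and 193 lost. With q-values of at most 0.001, 0 E2F genes were gained in OVCAR-3 and 0 genes were lost in either line. With genes that had a peak in at least 1 library, 11899 genes and 8 E2F genes were higher averaged over the lines, 11113 and 8 in OVCAR-3 and 9441 in Kuramochi, 1 gene differed in effect and 112 were lower between the lines; more genes entered that fit, and missing heights were filled with the lowest height of the library. E2F4 and E2F5 entered it only through INX-315 peaks, so their calls carry no weight; 6 E2F genes were called in Kuramochi, without E2F4 and E2F8. An E2F string was found at 3 members in 400 bp and in RefSeq promoters, as wider or other windows hold more sequence.

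Leaving out 1 library at a time, 1 to 2 E2F genes were gained in each line (E2F4 or E2F6 joining E2F5). Over all genes, 3233 to 5144 were gained and 1 to 26 lost in OVCAR-3, and 2790 to 5399 gained and 3 to 69 lost in Kuramochi, where 4961 to 7781 were marked under DMSO. The highest counts came without replicate 2 (gained) and replicate 1 (lost) of OVCAR-3 DMSO, and without replicate 2 (gained) and replicate 1 (lost, marked) of Kuramochi DMSO. Without replicate 1 of OVCAR-3 INX-315, 4948 were gained in that line. In the tests, 2 to 6 E2F genes were called higher in OVCAR-3 (2 without replicate 2 of INX-315, 3 without replicate 2 of DMSO) and 2 to 4 in Kuramochi (2 without replicate 1 of DMSO). Between the lines under DMSO, 63 to 701 genes were higher (the extremes without replicate 2 and replicate 1 of Kuramochi DMSO) and 15 to 87 lower (without replicate 2 of OVCAR-3 DMSO and of Kuramochi DMSO), with 0 to 1 E2F genes higher. Without replicate 1 and replicate 2 of OVCAR-3 DMSO 79 and 109 were higher, without either Kuramochi INX-315 library 180, and without replicate 1 of OVCAR-3 DMSO 33 were lower. That gene was E2F3, at 1.74 (adjusted p = 0.0043) without replicate 1 of Kuramochi DMSO and at 1.12 (adjusted p = 0.043) without either OVCAR-3 INX-315 library; E2F8 ranged from −0.034 to 0.35. The difference of effects ranged from −0.026 to 0.80 for E2F1, −0.40 to 0.47 for E2F2, −0.58 to 0.65 for E2F3 and −0.85 to 0.28 for E2F8, and 0 to 6 genes were called, the 6 without replicate 1 of Kuramochi DMSO. The cause of these changes was not tested.

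Same-numbered libraries did not deviate together gene by gene (r = −0.04 in OVCAR-3 and −0.0079 in Kuramochi, across 3762 genes, which are not independent). A shift shared by whole libraries does not enter this measure, so it cannot decide whether the numbers pair them. The fit with the replicate block called 3754 genes higher averaged over the lines, 3736 in OVCAR-3 and 3645 in Kuramochi and 5 in the difference of effects; E2F8 was then called in Kuramochi (0.65, adjusted p = 0.045), and no other call of an E2F gene changed. The block cannot be fitted for the contrast between lines. The narrower promoter moved none of the counts by over 1.5 times. Requiring the summit or most of the peak in the promoter raised the genes lost to 12 and 11 in OVCAR-3 and to 9 and 10 in Kuramochi and moved no other count by over 1.5 times, and E2F2 could not be fitted under the latter rule. The leave-one-out means of summit position stayed within 1 SD. Leaving out 1 library cannot move such a mean by more, so this check decides nothing. The E2F4 and E2F5 summits rested on 7 to 17 fragments.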
